A study of Mus musculus with 4 samples.

Results

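The BCL2 family decides whether a cell opens the outer membrane of its mitochondria and dies by apoptosis. A set of 10 of its genes was followed here through mouse testis, by their symbols in the deposited feature lists: the pore-forming effectors Bax and Bak1, the survival genes Bcl2, Bcl2l1 and Mcl1, and the BH3-only genes Bid, Bad, Bcl2l11, Bbc3 and Pmaip1. All 10 of 10 symbols were found among the 31017 symbols of the files. The members were chosen by name and role, not by their values.

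As background, BAX and BAK1 assemble in the outer mitochondrial membrane and let cytochrome c out, which starts the caspase cascade. BCL2, BCL-XL (the product of Bcl2l1) and MCL1 hold the effectors and the BH3-only proteins in check. The BH3-only proteins carry the death signal: BIM (Bcl2l11) after loss of growth factors, PUMA (Bbc3) and NOXA (Pmaip1) downstream of p53, BAD under control of survival kinases, and BID after cleavage by caspase-8. In the juvenile testis a wave of germ cell apoptosis accompanies the first round of spermatogenesis, and loss of Bax in mice leaves excess spermatogonia and sterility.

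The study compared testes kept in organ culture with testes that had grown in the animal. It held 4 single-cell libraries, 1 per group, from Acr-Gfp tg mice on C57BL/6. Cultured fragments came from testes removed 7 days after birth (7 dpp, days postpartum). They rested for 2 or 7 days on an agarose block below a PDMS ceiling chip, in α-MEM that held AlbuMAX. The uncultured testes were taken at 9 and 14 dpp, so the 2-day culture was set against 9 dpp and the 7-day culture against 14 dpp, which match in total age. The number of animals behind a library is not in the labels, and the tissue is given as testis while the preparation text mentions female gonads.

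Wherever 4 values follow each other below, they are those of the 2-day culture, the 7-day culture, the 9 dpp testis and the 14 dpp testis, always in this order. After filters the libraries held 6877, 4816, 5150 and 6195 cells, with 32078508 to 57585867 unique molecular identifiers (UMIs, counted RNA molecules) each. The 2-day culture stood apart in depth, with a median of 3606 UMIs per cell against 5577.5 to 8544.5 elsewhere. A total of 281 cell barcodes occurred in more than 1 library. Cells were placed in a class or germ stage by the marker list that led in their own UMIs, so each is a range of marker score and not a cell type: 1103 of 23038 cells lay within 0.05 of the class limit and 1851 of 11039 germ cells within 0.05 of the stage limit. Every marker of the germ, Sertoli and Leydig lists was detected in its own class in each library. A level is given as CPM, the gene's UMIs per 1000000 UMIs of the library, class or stage. The counts are of 3′ ends and take no account of length. A ratio is the log2 ratio of CPM + 1. Brackets hold 95% intervals that cover counting error only. Each group is a single library, so no replicate error and no test exist, and culture cannot be told apart from library. A gene counts as past 2-fold at a log2 ratio of 1 or more in size, where the class holds at least 50 UMIs of it over the 4 libraries. Between 2 classes or stages the 50 UMIs may come from both together, so a gene scarce in one can enter through the other, where it is high, and a count of such genes supports nothing by itself. In sums over many cells, fewer cells of a type and less RNA per cell cannot be told apart.

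On GRCm38, by GENCODE M21, the effectors Bax and Bak1 lie at chr7:45461697-45466898 and chr17:27019810-27029009, both on the minus strand. The survival genes Bcl2 and Bcl2l1 lie at chr1:106538178-106714274 and chr2:152780668-152831728 on the minus strand and Mcl1 at chr3:95658788-95663176 on the plus strand. Of the BH3-only genes, Bid lies at chr6:120891930-120916853 on the minus strand. Bad lies at chr19:6941861-6951899, Bcl2l11 at chr2:128126038-128162547 and Bbc3 at chr7:16308393-16318205, all on the plus strand. All are protein-coding. Bax overlaps Gm45808 on its own strand, so its count is uncertain to that extent. Bak1, Bcl2, Bid and Bad overlap Ggnbp1, D630008O14Rik, Bcl2l13 and Gpr137 on the other strand, and the strand setting of the counting is not given in the sources used here.

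The effector Bax was a transcript of every class, and its level in germ cells depended on the stage. In differentiating spermatogonia, the dividing KIT-positive cells, Bax stood at 324, 308, 345 and 361 CPM. In leptotene or zygotene cells, which are in early meiotic prophase, the levels were 113, 126, 113 and 118 CPM. The highest meiotic level lay below the lowest spermatogonial one, and the 4 libraries were close to each other within each stage. The log2 ratio between these stages was -1.51 [-1.71 to -1.32], -1.28 [-1.40 to -1.17], -1.60 [-1.86 to -1.36] and -1.61 [-1.72 to -1.5]. Bax was the only member of the 9 tested that was lower by more than 2-fold in each of the 4 libraries, where 8.5% of all genes were. No member was higher in each, where 3.88% of all genes were. Preleptotene cells lay between, at 245, 221, 186 and 158 CPM, and against differentiating spermatogonia no member was past 2-fold in each library, beside 1.09% of all genes higher and 1.71% lower. Undifferentiated spermatogonia, the pool that holds the stem cells, stood at 241, 273, 241 and 233 CPM. In pachytene cells, which reached 50 only in the 7-day culture (76 cells) and at 14 dpp (114 cells), Bax was at 80.8 and 58.1 CPM. Leptotene or zygotene cells were the shallower stage, with median UMIs of 2524 to 5978 against 5047 to 13183 in differentiating spermatogonia. When stages were set from cells thinned to 2000 UMIs, the ratios were nearer to 0, at -0.96, -0.92, -0.39 and -0.90, and no library was past 2-fold.

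**Figure D1:**
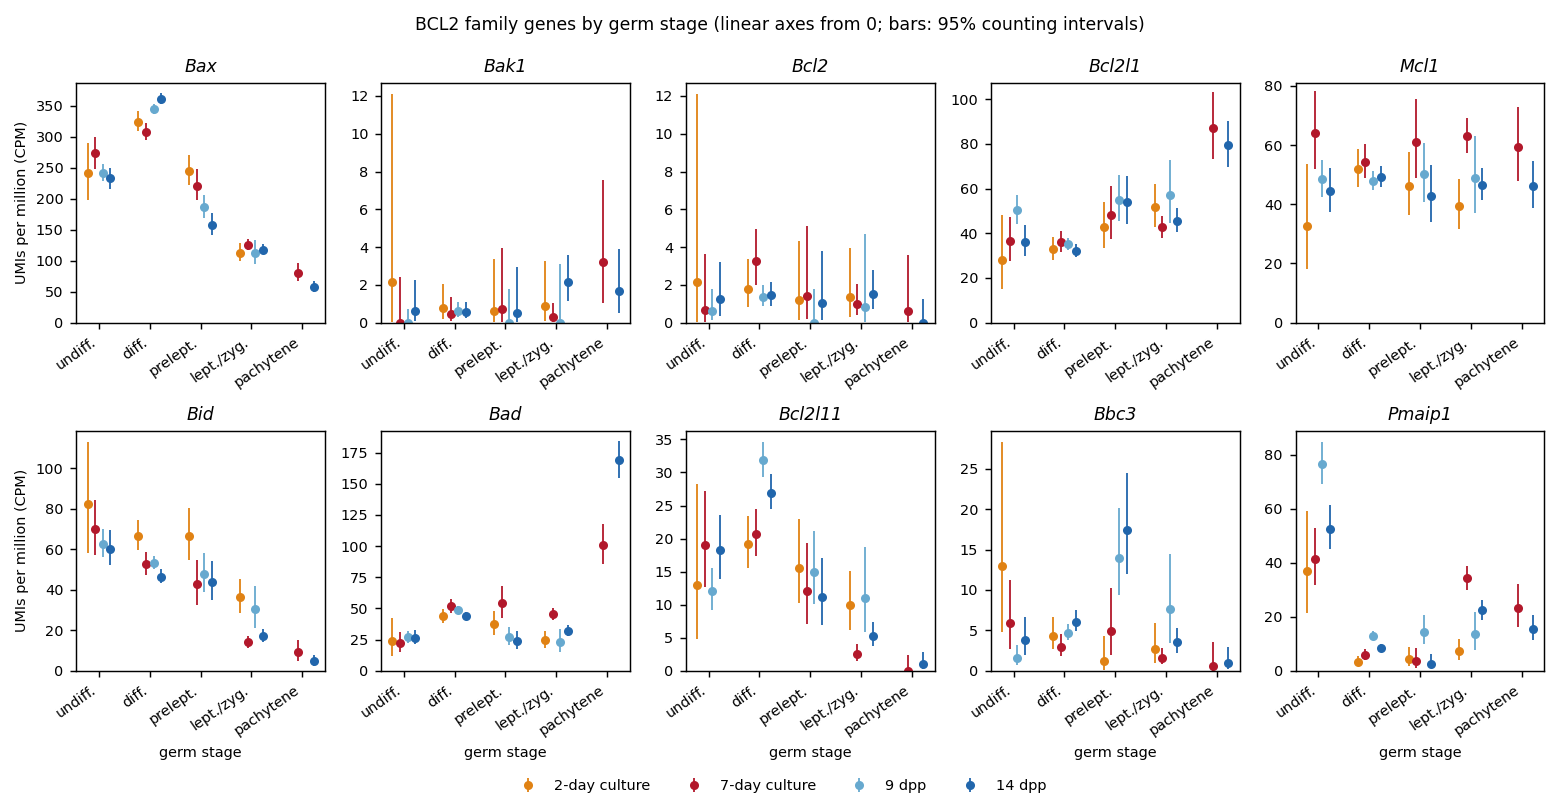
Level of each member (vertical axis, CPM, linear from 0) in 5 germ stages, 1 point per library with its 95% counting interval; stages under 50 cells are left out. Bax, Bid and Bcl2l11 are lower in leptotene or zygotene cells than in differentiating spermatogonia, Bad and Bcl2l1 are highest in pachytene cells, and Pmaip1 is high in undifferentiated spermatogonia and, in the 7-day culture and at 14 dpp, again in prophase.

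A pair of BH3-only genes, Bid and Bcl2l11, also had lower levels in prophase than in differentiating spermatogonia. Bad too was lower in leptotene or zygotene cells, by log2 ratios of -0.81, -0.19, -1.07 and -0.45, but not in pachytene cells. Its 7-day interval was -0.41 to 0.03. Bid stood at 66.7, 52.5, 53.3 and 46.5 CPM in differentiating spermatogonia. In leptotene or zygotene cells it was at 36.2, 14.1, 30.4 and 17.2 CPM, lower in each library and past 2-fold in the 7-day culture (-1.83 [-2.15 to -1.52]) and at 14 dpp (-1.38 [-1.67 to -1.11]). Pachytene cells held 9.04 CPM in the 7-day culture and 4.65 at 14 dpp. Bcl2l11 stood at 19.2, 20.7, 31.9 and 26.9 CPM in differentiating spermatogonia and at 9.96, 2.56, 11 and 5.33 CPM in leptotene or zygotene cells. Its log2 ratio between the stages was -0.88, -2.61, -1.46 and -2.14. In pachytene cells of the 7-day culture no Bcl2l11 UMI was counted, which gives an exact interval of 0 to 2.38 CPM and, at 3 UMIs, a limit of 1.94 CPM, and at 14 dpp 3 UMIs gave 0.997 CPM. With stages set from thinned cells the 9 dpp ratios shrank to -0.17 for Bid and -0.06 for Bcl2l11, the 14 dpp Bid ratio to -0.81, and those of the 7-day culture were -1.09 and -1.29. Over all settings the 14 dpp Bcl2l11 ratio ran from -2.76 to -1.03.

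The opposite order was seen for Bad and Bcl2l1 in pachytene cells. Bad, the kinase-controlled BH3-only gene, was at 45.3 CPM in leptotene or zygotene cells and 101 CPM in pachytene cells of the 7-day culture, a log2 ratio of 1.14 [0.85 to 1.41]. At 14 dpp it was at 31.8 and 169 CPM, a ratio of 2.37 [2.14 to 2.61]. With stages set from thinned cells the 7-day value was 0.95. Bad was the only member of the 7 tested that was higher by more than 2-fold in both libraries, where 11.5% of all genes were. On the lower side, where 20.5% of all genes were, only Bcl2l11 lay past 2-fold in both, but it held 0 and 3 UMIs in pachytene cells, entered through the earlier stage, and its 7-day interval reached 0.03. Between the libraries, pachytene Bad was lower in the 7-day culture than at 14 dpp by a log2 ratio of -0.74 [-1.01 to -0.48]. Bcl2l1, which encodes the survival protein BCL-XL, was at 87.2 and 79.4 CPM in pachytene cells of the 7-day culture and 14 dpp, against 36.2 and 32.2 CPM in differentiating spermatogonia. These ratios were 1.25 [0.94 to 1.55] and 1.28 [1.05 to 1.50], and Bcl2l1 was the only member of 8 tested above 2-fold in both libraries, beside 15.7% of all genes. Each gene passed in both libraries against 1 of the 2 earlier stages only. Against leptotene or zygotene cells, at 42.6 and 45.7 CPM, the Bcl2l1 ratios were 1.02 and 0.79. Against differentiating spermatogonia, at 51.8 and 43.8 CPM, the Bad ratios were 0.95 and 1.93. In that contrast Bax was lower by more than 2-fold in both, beside 35% of all genes. Bid (14 and 14 UMIs in pachytene cells), Bcl2l11 (0 and 3) and Bbc3 (1 and 3) also had ratios beyond 2-fold lower, but entered through differentiating spermatogonia, and the 7-day Bbc3 interval was -2.01 to 0.34. Pachytene cells were the deeper stage, with median UMIs of 20227.5 in the 7-day culture and 24730.5 at 14 dpp. In these libraries leptotene or zygotene cells had 5546 and 4428, and differentiating spermatogonia 7359 and 9898.5. Bad is listed with 2 transcript starts and Bcl2l1 with 3, and the 3′ counts do not separate them.

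The promoter windows of Bax, Bid and Bad are shown because these genes had contrasting courses over the stages. They are RefSeq windows of GRCm38.p6, the build that mm10 names, from 250 bases before to 50 after the start. Capitals mark CACGTG (an E-box) and GGGCGG (a GC box), searched on both strands, where a GC box on the other strand reads CCGCCC. Bax lies on the minus strand at chr7:45466849-45467148, Bid on the minus strand at chr6:120916775-120917074 and the first listed start of Bad on the plus strand at chr19:6941611-6941910.
Bax: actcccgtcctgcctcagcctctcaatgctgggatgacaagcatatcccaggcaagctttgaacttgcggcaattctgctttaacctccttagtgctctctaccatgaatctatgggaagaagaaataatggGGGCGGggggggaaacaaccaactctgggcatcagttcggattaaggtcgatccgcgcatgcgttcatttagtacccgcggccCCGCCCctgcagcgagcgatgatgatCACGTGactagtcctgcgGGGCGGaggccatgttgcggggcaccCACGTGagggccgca
Bid: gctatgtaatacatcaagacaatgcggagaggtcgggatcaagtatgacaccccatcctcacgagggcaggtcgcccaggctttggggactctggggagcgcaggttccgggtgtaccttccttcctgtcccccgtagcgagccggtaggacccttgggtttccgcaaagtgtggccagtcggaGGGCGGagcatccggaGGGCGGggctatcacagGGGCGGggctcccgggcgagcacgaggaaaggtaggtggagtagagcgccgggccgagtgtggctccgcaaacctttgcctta
Bad: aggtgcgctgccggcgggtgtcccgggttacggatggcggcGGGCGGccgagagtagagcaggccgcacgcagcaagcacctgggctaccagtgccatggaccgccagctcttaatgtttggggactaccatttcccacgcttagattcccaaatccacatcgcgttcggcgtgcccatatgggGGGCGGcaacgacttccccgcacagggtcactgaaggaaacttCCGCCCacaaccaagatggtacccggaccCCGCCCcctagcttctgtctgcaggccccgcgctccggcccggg
The Bax window held 2 E-boxes and 3 GC boxes, the Bid window 3 GC boxes and the Bad window 4 GC boxes. Of 32851 windows of this length, 7.15% held the E-box and 35.7% the GC box. Of the 10 members, 9 have a window that was used. The Bak1 window held neither motif, the 3 Bcl2l1 windows held neither, and the Bcl2 window held 7 GC boxes. A match describes letters only.

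Mcl1, a survival gene with a short-lived product, was not past 2-fold between any of the stages compared. In undifferentiated spermatogonia it stood at 32.5, 64.0, 48.5 and 44.5 CPM. It stood at 51.9, 54.4, 47.9 and 49.3 CPM in differentiating spermatogonia and at 39.4, 63.1, 48.9 and 46.6 CPM in leptotene or zygotene cells. The ratio of the latter to the former was -0.39 [-0.75 to -0.04] in the 2-day culture and 0.21 [0.01 to 0.41] in the 7-day culture, and its intervals held 0 at 9 and 14 dpp. The 7-day culture held the highest level of the measured libraries in each of the 5 stages, from 54.4 to 64.0 CPM. Over all germ cells Mcl1 was at 59.0 CPM in the 7-day culture and 46.8 to 47.5 CPM in the others. The ratio to 14 dpp was 0.31 [0.20 to 0.42], below 2-fold, with 0.26 to 0.40 over the alternative settings.

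Pmaip1, the gene for NOXA, was carried by germ cells. It was at 5.99, 20, 24.6 and 16 CPM in germ cells. In Sertoli cells, the nurse cells of the tubule, it was at 0.421, 1.36, 0.597 and 2.36 CPM. Stromal or myoid cells held 0.322 to 1.20 CPM. After thinning each cell to 2000 UMIs, 1.31% [0.888 to 1.87] of 2283 germ cells in the 2-day culture and 4.55% [3.74 to 5.48] of 2308 at 9 dpp held a Pmaip1 UMI, against 0.133% and 0.231% in Sertoli cells. Without thinning the germ shares were 2.3% and 18.4% at median depths of 3590 and 10993.5 UMIs, with 410 and 30 cells left out as too shallow. Undifferentiated spermatogonia had the highest level in each library, at 36.9, 41.2, 76.6 and 52.6 CPM. Differentiating spermatogonia had 3.37, 5.87, 13.0 and 8.38 CPM. The log2 ratio was 3.12, 2.62, 2.47 and 2.52, with lowest values over the settings of 1.81, 1.69, 1.91 and 1.77, and Pmaip1 was the only member of 9 tested that was higher by more than 2-fold in each library, beside 3.05% of all genes. None was lower in each, beside 1.74%. In leptotene or zygotene cells the levels were 7.24, 34.2, 13.5 and 22.4 CPM, above those of differentiating spermatogonia by 2.36 [1.92 to 2.81] in the 7-day culture and 1.32 [0.99 to 1.64] at 14 dpp.

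Pmaip1 was lower in the 2-day culture than in its age-matched testis. Over the whole library it was at 3.49 CPM against 14.3 CPM at 9 dpp, a log2 ratio of -1.77 [-2.0 to -1.54], while the 7-day culture had 11.7 and 14 dpp 10.8 CPM (0.10 [-0.07 to 0.27]). With a constant of 10 in place of 1, which shrinks ratios of low genes, the 2-day ratio was -0.85. It was the only member of 10 past 2-fold in the 2-day pair, where 3.41% of all genes were lower and 4.19% higher. The median ratio of the members was -0.06, and that of all 16616 genes tested was -0.12. In germ cells the ratio was -1.88 [-2.20 to -1.56], again the only 1 of 10 members, beside 3.15% of all genes lower and 1.24% higher. By stage the ratio was -1.03 [-1.80 to -0.35] in undifferentiated spermatogonia, where Pmaip1 was the only 1 of 7 members tested past 2-fold beside 9.12% of genes lower and 3.71% higher. It was -1.69 [-2.27 to -1.11] in differentiating spermatogonia, the only 1 of 9 beside 2.98% lower and 1.22% higher, and -0.79 with a constant of 10. Preleptotene cells held 4.20 against 14.5 CPM, under 50 UMIs in all, and leptotene or zygotene cells gave -0.81 [-1.79 to 0.18], with none of 7 members past 2-fold beside 3.9% higher and 3.1% lower. Undifferentiated spermatogonia were 91 of 2693 germ cells in the 2-day culture and 336 of 2338 at 9 dpp. Giving the 9 dpp stages the mixture of the 2-day culture would by itself put the germ ratio at -0.50. The median mitochondrial share of germ cells was 7.647%, 5.527%, 6.141% and 5.453%, highest in the 2-day culture, and its part in the ratio was not tested. In undifferentiated spermatogonia the ratio was nearer to 0 than 2-fold under several settings, at -0.49 with stages set from thinned cells. In the 7-day pair no member was past 2-fold in the stages other than preleptotene, beside 1.28% of genes higher and 1.91% lower in undifferentiated spermatogonia, 0.686% and 3.36% in differentiating spermatogonia, 1.95% and 4.96% in leptotene or zygotene cells and 1.8% and 3.12% in pachytene cells. In the culture over time, Pmaip1 was higher at 7 than at 2 days by 1.5 [1.25 to 1.75], the only 1 of 10 members past 2-fold beside 4.52% of all genes higher and 2.37% lower. In germ cells this ratio was 1.59 [1.26 to 1.92], again the only 1 of 10, beside 5.71% higher and 2.59% lower. In leptotene or zygotene cells Pmaip1 was higher at 7 days (2.10 [1.43 to 2.80]) and Bid (-1.31 [-1.72 to -0.88]) and Bcl2l11 (-1.62 [-2.37 to -0.83]) were lower, 3 of 7 members tested, beside 12% of genes higher and 11.3% lower. Over the whole library none of the 10 was past 2-fold between 14 and 9 dpp, where 4.09% of genes were higher and 1.97% lower, and the median member ratio was -0.22.

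The other BH3-only genes were all under 2-fold in cultured against uncultured germ cells, and Bcl2l11 was the one whose interval lay below 0 in both pairs. Bid was at 59.9 against 53.8 CPM (0.15 [0.02 to 0.28]) and 36.3 against 37.7 CPM (-0.05 [-0.18 to 0.08]). Bad was at 37.0 against 41.9 CPM (-0.18 [-0.33 to -0.02]) and 50.3 against 48.9 CPM (0.04 [-0.07 to 0.15]). Bcl2l11 was at 17.3 against 25.6 CPM in the 2-day pair and 12 against 18.0 CPM in the 7-day pair, log2 ratios of -0.54 [-0.76 to -0.32] and -0.55 [-0.75 to -0.34]. Both were below 2-fold, and the stage mixtures alone would give -0.16 and -0.23. Bbc3, the gene for PUMA, was at 3.73 against 5.05 CPM (-0.35 [-0.76 to 0.05]) and 2.95 against 5.59 CPM (-0.74 [-1.07 to -0.40]), where the stage mixtures alone would give 0.34 and -0.02. The stages did not share a direction. In undifferentiated spermatogonia Bbc3 was higher in culture, at 13.0 against 1.62 CPM in the 2-day pair (2.42 [0.93 to 3.64]) and 5.88 against 3.78 CPM in the 7-day pair (0.52 [-0.63 to 1.63]), from 6 to 12 UMIs per library and under 50 in all. In preleptotene cells, which are about to enter meiosis, it was at 1.20, 4.98, 14.0 and 17.4 CPM, from 2, 7, 29 and 33 UMIs, so the 2-day level rests on 2 UMIs. There both cultures lay below both uncultured libraries. The ratios were -2.77 [-3.79 to -1.35] and -1.63 [-2.74 to -0.56], and their backgrounds in this stage were 2.61% and 3.39% of genes lower, with 2.03% higher in the 2-day pair. Bbc3 was 1 of 7 members tested there, and the only other one past 2-fold was Bad in the 7-day pair (54.1 against 23.8 CPM, 1.15 [0.62 to 1.70], beside 3.81% of genes higher). Over the settings the 2-day Bbc3 ratio ran from -4.67 to -1.10, the latter with a constant of 10. With stages set from thinned cells the 7-day ratios in this stage were -0.63 for Bbc3 and 0.69 for Bad, both under 2-fold. No member was past 2-fold in germ cells as a whole in the 7-day pair, where 0.704% of genes were higher and 2.62% lower.

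**Figure D2:**
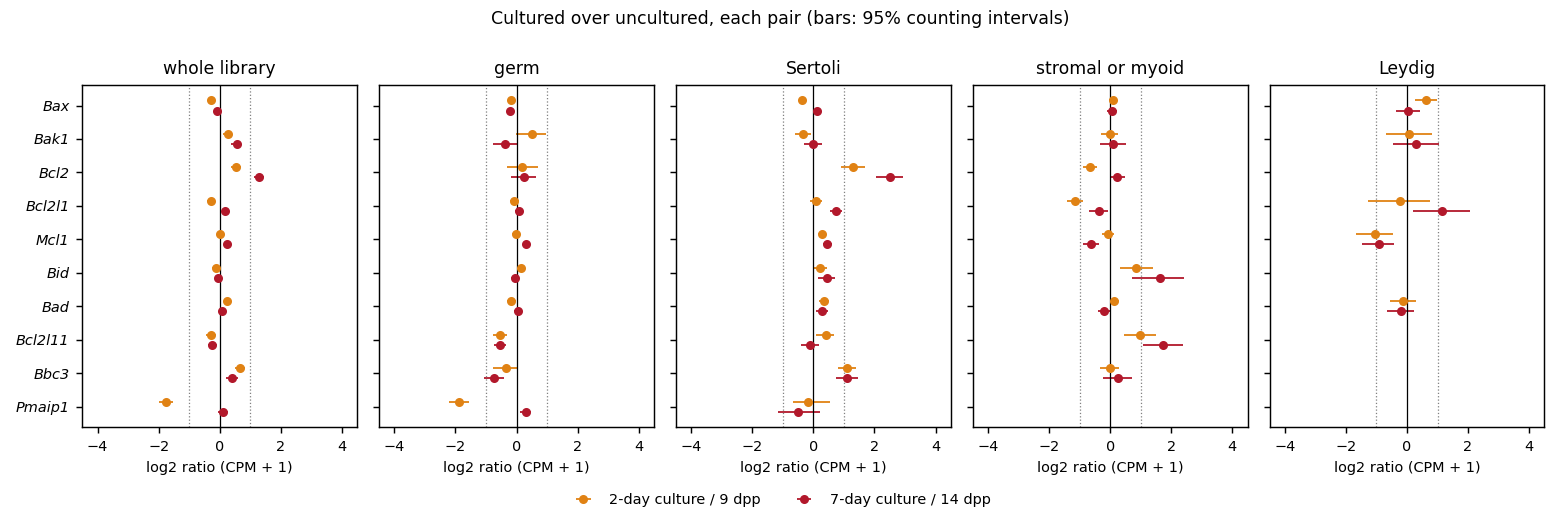
Log2 ratio of CPM + 1, cultured over uncultured (horizontal axis), for the 2-day pair (orange) and the 7-day pair (red) in the whole library and 4 classes, with 95% counting intervals; dotted lines mark 2-fold, and members under 50 UMIs in a class are left out. Pmaip1 in germ cells lies left of the 2-fold line in the 2-day pair and right of 0 in the 7-day pair, Bcl2 and Bbc3 are higher in Sertoli cells of both pairs, and Bid and Bcl2l11 are higher in stromal or myoid cells.

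By cell class, germ and somatic cells differed in which effector and survival genes they carried. Bak1 was at 0.954, 0.542, 0.388 and 1.02 CPM in germ cells. In Sertoli cells it was at 21.6, 21.4, 27.4 and 21.5 CPM, in stromal or myoid cells at 22.3, 18.5, 22.5 and 17.2 CPM and in Leydig cells, which make testosterone, at 29.0, 29.7, 27.3 and 23.9 CPM. The 3 somatic classes overlapped in their intervals and germ cells lay far below them. Thinned to 2000 UMIs, 0.0844% to 0.231% of germ cells and 3.99% to 4.49% of Sertoli cells held a Bak1 UMI, and unthinned 0.408% to 0.933% and 11.2% to 35.5%. The germ to Sertoli ratio was -3.48 to -4.36, and Bak1 was the only member of 10 lower by more than 2-fold in each library, beside 12.5% of all genes. Pmaip1 was the only member higher, beside 17.2%. It is scarce on the Sertoli side, where unthinned 0.25%, 1.48%, 1.02% and 2.92% of cells held a UMI of it. With free RNA subtracted, estimated from somatic markers at 2.09% to 6.07% of germ UMIs, the Bak1 ratio was -3.98, -4.19, -4.88 and -4.06. By stage the estimate was highest in leptotene or zygotene cells at 14 dpp, at 15.22%, against 3.25% in differentiating spermatogonia of that library. That stage enters the 14 dpp stage ratios given above. With a constant of 10 the Bak1 ratio was -1.53, -1.57, -1.85 and -1.52, still past 2-fold.

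Among germ, Sertoli, stromal or myoid and Leydig cells, Bcl2 was highest in stromal or myoid cells. Rarer classes, such as pericytes and lymphocytes, were not ranked. Its levels in stromal or myoid cells were 26.1, 66.7, 41.5 and 56.4 CPM, in Sertoli cells 13.0, 18.5, 4.71 and 2.44 CPM, in Leydig cells 5.09 to 6.74 CPM and in germ cells 1.16 to 1.63 CPM. Against stromal or myoid cells, germ cells were lower by more than 2-fold in each library for 3 of 10 members, Bak1, Bcl2 and Bbc3 (14.7% of all genes), and higher for 2, Bid and Pmaip1 (21.6%). Germ Bak1 and Bcl2 (11 to 40 UMIs per library) and stromal or myoid Pmaip1 (2 to 12) are scarce on their low side. Pmaip1 entered only through germ cells, where it is high. Stromal or myoid Bid is scarce at 14 dpp, where 0.532% of cells held a UMI of it unthinned. Bid was at 59.9, 36.3, 53.8 and 37.7 CPM in germ cells, 29.0, 25.6, 24.7 and 18.7 CPM in Sertoli cells and 7.28, 5.96, 3.56 and 1.23 CPM in stromal or myoid cells. It was the only member of 10 higher in Sertoli than in stromal or myoid cells by more than 2-fold in each library, beside 10.7% of all genes. None was lower, beside 9.92%. Among the same classes, Mcl1 was highest in Sertoli cells in both cultures and at 9 dpp, at 102, 98.7 and 84.7 CPM. At 14 dpp it was highest in Leydig cells, at 96.2 CPM. Its Leydig level was 37.0, 49.9, 77.6 and 96.2 CPM, lower in both cultures than in both uncultured testes.

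**Figure D3:**
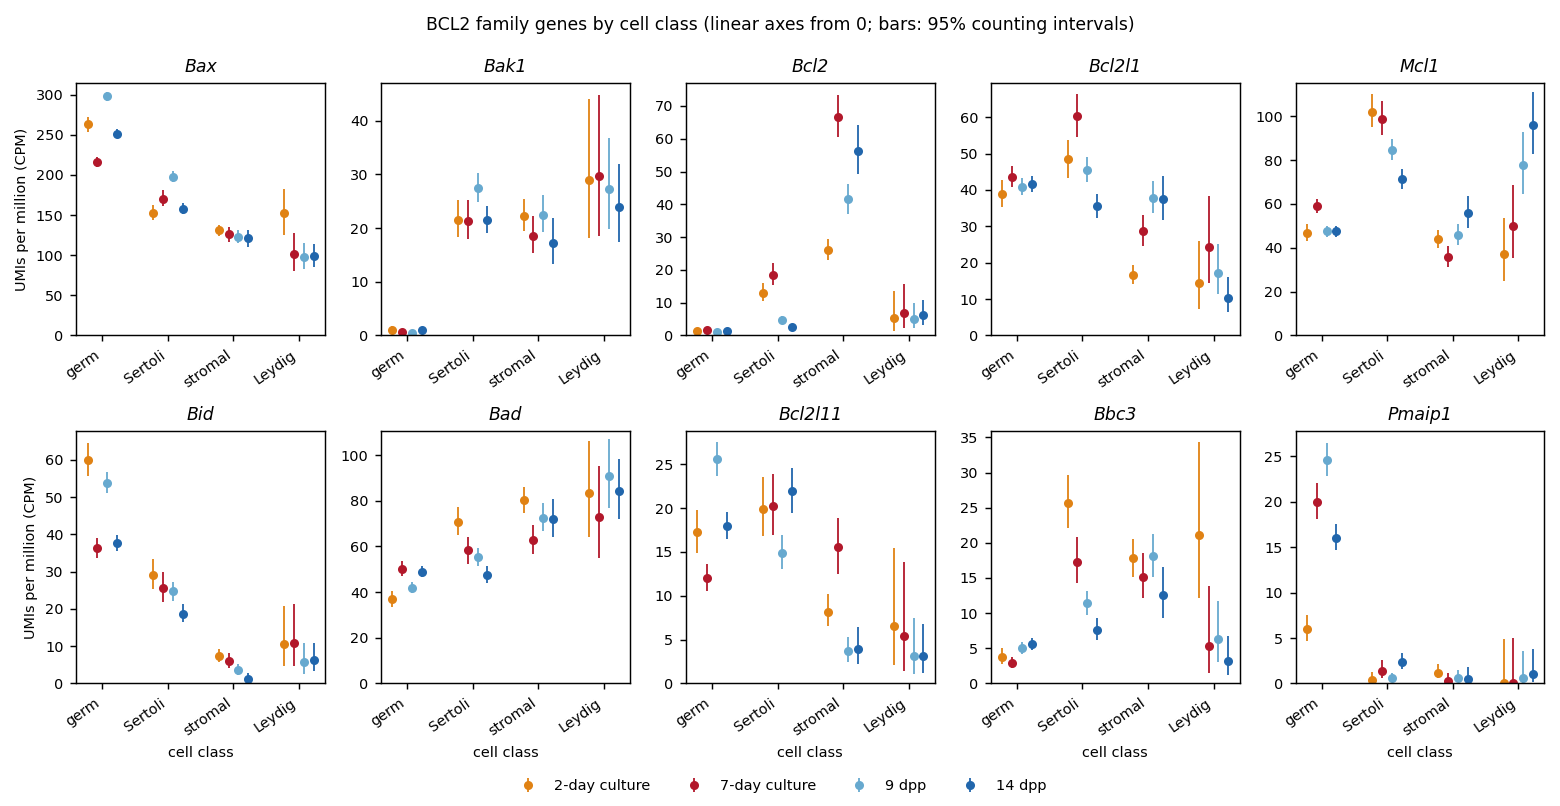
Level of each member (vertical axis, CPM, linear from 0) in germ, Sertoli, stromal or myoid and Leydig cells, 1 point per library with its 95% counting interval. Bak1 and Bcl2 are near 0 in germ cells, Pmaip1 is near 0 in the somatic classes, Bcl2 is highest in stromal or myoid cells and Bid is highest in germ cells.

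In Sertoli cells a survival gene and a BH3-only gene both had a higher CPM in culture. Bcl2 was at 13.0 CPM in the 2-day culture against 4.71 at 9 dpp (1.30 [0.89 to 1.70]) and at 18.5 CPM in the 7-day culture against 2.44 at 14 dpp (2.50 [2.05 to 2.95]). Bbc3 was at 25.7 against 11.4 CPM (1.11 [0.82 to 1.40]) and 17.3 against 7.56 CPM (1.10 [0.73 to 1.47]). For each gene both cultures lay above both uncultured libraries in CPM. Of thinned cells, 5.59% [4.06 to 7.48] in the 2-day culture and 2.2% [1.33 to 3.41] at 9 dpp held a Bbc3 UMI. In the 7-day pair these shares were 2.7% [1.49 to 4.49] and 2.24% [1.38 to 3.45], so the intervals overlapped. For Bcl2 the 2-day pair had 2.26% [1.32 to 3.6] and 1.27% [0.636 to 2.26], also overlapping. The 7-day pair had 2.51% [1.34 to 4.25] and 0.449% [0.122 to 1.15]. Thinning left out 451 cells of the 2-day culture as too shallow. With a constant of 10 the Bcl2 ratios were 0.65 and 1.20 and the Bbc3 ratios were 0.74 and 0.64. Under a stricter class rule Bbc3 was at 0.97 and 0.59, so its side of the 2-fold line depends on these settings. Bcl2 and Bbc3 were the only 2 of 10 members past 2-fold in either pair, beside 6.47% and 9.6% of all genes higher and 6.16% and 8.3% lower. Bcl2l1 was at 48.4 against 45.5 CPM in the 2-day pair (0.09 [-0.10 to 0.27]) and at 60.3 against 35.5 CPM in the 7-day pair (0.75 [0.55 to 0.94]). Mcl1 was higher in both pairs, at 102 against 84.7 CPM and 98.7 against 71.3 CPM, below 2-fold as Bcl2l1 was. Bax was at 153 against 198 CPM and 170 against 158 CPM. The median ratio of the members was 0.25 and 0.36, and that of all genes -0.11 and -0.02. Sertoli cells of the 2-day culture had a median of 3285.5 UMIs against 13975 at 9 dpp. The 6 immediate early and heat shock genes summed to 1443 and 4631 CPM in the 2- and 7-day cultures and to 1071 and 342 CPM at 9 and 14 dpp. The 8 germ markers, of which all were detected, summed to 153 and 260 CPM in the cultures and 225 and 899 CPM at 9 and 14 dpp. Free RNA was estimated at 9.21%, 7.22%, 8.76% and 17.63% of Sertoli UMIs, and the median mitochondrial share was 4.376%, 6.096%, 5.742% and 8.745%, both highest at 14 dpp. With free RNA subtracted the Bcl2 ratios were 1.39 and 2.96. The part of the other differences in the Bcl2 and Bbc3 ratios was not tested.

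Stromal or myoid cells, the connective and contractile cells around the tubules, showed another set. In the 2-day pair Bcl2l1 was at 16.6 against 37.9 CPM (-1.15 [-1.42 to -0.88]), the only 1 of 9 members tested past 2-fold, beside 7.18% of all genes lower and 5.99% higher. It was -0.99 with TMM factors and -0.85 with a constant of 10. In the 7-day pair it was at 28.7 against 37.4 CPM (-0.37 [-0.68 to -0.06]). Bid and Bcl2l11 were the 2 of 9 past 2-fold in the 7-day pair, beside 5.57% of all genes higher and 4.3% lower. Bid was at 5.96 against 1.23 CPM (1.64 [0.72 to 2.41]), from 37 and 5 UMIs, and at 7.28 against 3.56 CPM in the 2-day pair (0.86 [0.33 to 1.39]). Bcl2l11 was at 15.5 against 3.94 CPM (1.74 [1.08 to 2.40]) and at 8.18 against 3.69 CPM in the 2-day pair (0.97 [0.45 to 1.49]). For each of the 2 genes both cultures lay above both uncultured libraries. The uncultured level of Bid was itself lower at 14 dpp than at 9 dpp, at 1.23 against 3.56 CPM. With a constant of 10 in place of 1 the 7-day Bid ratio was 0.51 and the Bcl2l11 ratio 0.87, both under 2-fold. Over all settings these ratios reached 2.62 and 2.11 at most. Free RNA was estimated at 4.72%, 3.57%, 5.3% and 7.64% of the UMIs of this class, and median UMIs were 3666, 4044, 5504 and 3999.5. Bcl2 was lower in the 2-day pair (-0.65 [-0.88 to -0.42]) and higher in the 7-day pair (0.24 [0.01 to 0.47]). Over time in culture it was at 26.1 and then 66.7 CPM (1.32 [1.10 to 1.54]), the only 1 of 9 past 2-fold beside 3.61% of genes higher and 3.75% lower.

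Leydig cells numbered 75 to 144 per library, and 5 of 10 members held 50 UMIs. Mcl1 was lower in culture, at 37.0 against 77.6 CPM (-1.05 [-1.68 to -0.46]) and 49.9 against 96.2 CPM (-0.93 [-1.47 to -0.43]), and was the only 1 of 5 past 2-fold in the 2-day pair beside 10.7% of all genes lower and 5.22% higher. The first of these was -0.72 with cells weighted equally. Bcl2l1 was at 14.5 against 17.2 CPM in the 2-day pair (-0.23 [-1.29 to 0.77]). It was past 2-fold in the 7-day pair, at 24.3 against 10.4 CPM (1.15 [0.20 to 2.07]), from 18 and 20 UMIs, beside 5.86% higher and 9.28% lower, and 0.75 with a constant of 10.

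Over whole libraries the 7-day pair differed past 2-fold for 1 of 10 members, Bcl2, at 17.8 against 6.76 CPM (1.28 [1.11 to 1.44]), beside 3.6% of all genes higher and 2.67% lower. Giving the 14 dpp classes the cell mixture of the 7-day culture would by itself put it at 0.79, and the ratio was 0.97 with cells weighted equally and 0.73 with a constant of 10. In the 2-day pair Bcl2 was at 13.0 against 8.65 CPM (0.54 [0.36 to 0.71]), where the mixture alone would give 0.80. The median member ratio was 0.13 in the 7-day pair and that of all genes 0.00. Bbc3 was at 14.7 against 8.87 CPM (0.67) and 9.32 against 6.81 CPM (0.40), where mixture alone would give 0.27 and 0.13.

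Genes around the BCL2 family were read from lists chosen with earlier results of these data known. Over all genes of the whole library, 4.19% were higher and 3.41% lower by 2-fold in the 2-day pair, and 3.6% and 2.67% in the 7-day pair. The calls on the lists depend on the constant: 10 list genes of the 2-day pair were past 2-fold, as were 6 of the 7-day pair, against 6 and 0 with a constant of 10 and 15 and 9 with 0.1. In the whole library, 2 of 9 death receptor and adaptor genes were past 2-fold in the 2-day pair, Fas at 23.3 against 2.21 CPM and Tnfrsf1a at 121 against 55.0 CPM, and 1 of 9, Fas, in the 7-day pair at 9.48 against 1.62 CPM. Of 7 NF-kB linked survival genes, the inhibitor of apoptosis Birc3 (28.1 against 5.96, and 12.4 against 4.23 CPM) and Tnfaip3 (12.3 against 0.903, and 4.31 against 1.12 CPM) were higher in both pairs. Of 6 pyroptosis and necroptosis genes, the inflammatory caspases Casp1 and Casp4 were higher in both, Casp4 at 17.6 against 0.504 CPM and 6.14 against 0.534 CPM, and Mlkl in the 2-day pair. Of 14 apoptosome and caspase genes, 1 was past 2-fold, Cycs (cytochrome c), lower at 392 against 841 CPM in the 2-day pair, and at 517 against 756 CPM in the 7-day pair. Of 11 p53 genes, Cdkn1a was higher in the 2-day pair at 35.5 against 12.8 CPM. None of the 8 mitochondrial channel and fusion genes or the 4 MCL1 turnover genes was past 2-fold in either pair. Of 11 other BCL2 family genes Bcl2a1b was higher in both pairs, at 1.68 against 0.174 and 4.34 against 0.48 CPM, but its near-identical copies may share reads. In germ cells none of these lists had a member higher by 2-fold in either pair, and 3 genes were lower: Cdkn1a in the 2-day pair, at 5.20 against 14.4 CPM, and Tradd and Phlda3 in the 7-day pair. Of all genes in germ cells, 1.24% and 0.704% were higher and 3.15% and 2.62% lower in the 2 pairs, so these counts are near the background. In Sertoli cells, where 6.47% and 9.6% of all genes were higher and 6.16% and 8.3% lower, Fas, Birc3, Tnfaip3 and Casp4 were higher by 2-fold in both pairs. Of 8 other BCL2 family genes none was past 2-fold in the 2-day pair and 3 were higher in the 7-day pair. These were Bok (289 against 70.4 CPM), an effector-like member, and the BH3-only type genes Hrk (4.07 against 1.18 CPM) and Bnip3 (87.1 against 42.4 CPM). Cflar, an inhibitor of caspase-8, and the p53 target Phlda3 were also higher in the 7-day pair. Cycs and Sesn2 were lower in the 2-day pair and Cyct and Sesn2 in the 7-day pair. Cdkn1a was higher in the 2-day pair (32.8 against 6.84 CPM) and lower in the 7-day pair (11.5 against 25.2 CPM). In stromal or myoid cells, where 5.99% and 5.57% of all genes were higher and 7.18% and 4.3% lower, Fas, Tnfrsf1a, Birc3, Tnfaip3, Casp1, Casp4 and Mlkl were higher by 2-fold in both pairs. Fas was at 56.3 against 8.40 CPM and 41.4 against 10.8 CPM there. Traf2 and Cdkn1a were higher in the 2-day pair and Bmf and Eda2r in the 7-day pair, while Bok and Trib2 were lower in the former and Traf1, Dnm1l and Trp63 in the latter.

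Over 39 groups of a library and a class or stage, which share libraries and cells, the gene most similar in log2 level to Bak1 was Marcks (Pearson r = 0.977). For Bcl2 it was Etv1 (0.938), for Bid Gab3 (0.925), for Bcl2l11 Gng12 (0.905), for Bad Mzt2 (0.897), for Pmaip1 Ubqln1 (0.886), for Bax Tle3 (0.856), for Bcl2l1 Ppp1r16a (0.837), for Bbc3 Plscr3 (0.804) and for Mcl1 Slc7a1 (0.754). These are the highest of 14024 genes searched and are a description. Among the members themselves Bak1 and Bcl2 (0.83) and Bax and Bcl2l11 (0.71) were the most alike, and Bid and Bad (-0.74) the least.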

How the data were processed

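The authors deposited whole-number UMI counts per gene and cell barcode for 4 libraries of the Chromium 3′ v2 kit. Per the file headers, Cell Ranger 3.0.2 made them, and per the submitters' processing notes the build was mm10. Other settings are not given in the sources used here. Counts of identifiers with the same symbol were added. Cells needed 500 genes and no more than 20% mitochondrial UMIs, and Scrublet calls (scanpy 1.11.5, expected rate 6%) were removed. A cell joined the class whose markers led its score with at least 3 UMIs, 2 markers and 50% of the score. A germ cell joined a stage with 2 UMIs and 40%. UMIs were summed per library, class or stage of at least 50 cells and turned into CPM. Ratios used a constant of 1. CPM intervals are exact Poisson, ratio intervals exact conditional binomial, share intervals Clopper-Pearson. The ratio code was tested on simulated data. Thinned cells held 2000 UMIs. The members, lists and alternatives were chosen with earlier results of these data known, and the sequences after values were seen. Named list genes were up to 3 per list with at least 50 UMIs, one sign in both culture pairs and the largest smaller ratio; genes behind a count of 5 or fewer were also named. TMM factors came from edgeR 4.0.16. Sequence of 1 member is not reported here.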

Additional observations from a re-analysis of the deposited data

Results flagged for a closer look

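A pair of values is given here where the counting intervals of the 2 culture pairs lay on opposite sides of 0. The difference between the pairs was not tested, since each group is 1 library. Pmaip1 in germ cells was lower in the 2-day pair (-1.88) and higher in the 7-day pair (0.30). Bcl2 in stromal or myoid cells was lower in the 2-day pair (-0.65) and higher in the 7-day pair (0.24), where it was 0.05 under the stricter class rule. Bcl2l1 over the whole library was lower in the 2-day pair (-0.30) and higher in the 7-day pair (0.16), and with cells weighted equally the latter was -0.02.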

How the results depend on the processing

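Of 823 recomputed values, 659 stayed within the counting interval or within 1.5 times the count, 164 moved and none of the called ratios among them changed sign. Single-gene ratios over time in culture, between pachytene cells and differentiating spermatogonia, and some others between stages or classes were not recomputed. With a constant of 10 the number of members past 2-fold was 0 in the whole library in the 2-day pair, the 7-day pair and the culture over time, 0 in Sertoli, stromal or myoid and Leydig cells of the 2-day pair, 0 in stromal or myoid and Leydig cells of the 7-day pair and 1 in Sertoli cells of that pair. With 0.1 it was 2 in germ cells and 3 in stromal or myoid cells of the 2-day pair. In stromal or myoid cells of the 2-day pair it was 2 with doublet calls kept, with cells weighted equally, with TMM factors and under the stricter class rule, and 3 with free RNA subtracted. In Leydig cells of the 2-day pair it was 2 with no UMI minimum and 0 with the stricter cell filter, with doublet calls kept and with cells weighted equally. In Leydig cells of the 7-day pair it was 2 with no minimum, doublet calls kept, equal weights or free RNA subtracted, and 0 at 200 UMIs, where stromal or myoid cells of that pair had 1. Equal weights left 0 in the whole 7-day pair. Under the stricter class rule it was 1 in Sertoli cells of both pairs and 1 in germ cells of the 7-day pair, and with TMM factors 1 in Sertoli cells of the 7-day pair. TMM factors moved every whole-library ratio of the 2-day pair by 0.17, its median to 0.11 and Bid from -0.13 to 0.03. The share of all genes past 2-fold ranged over the settings from 2.48% to 14.5% for the 2-day pair, and for the 7-day pair from 1.62% to 12.5%. The cause of these shifts was not tested, apart from the constants and minimums, which act by construction. No paired analysis was possible because each group is 1 library with no replicate number, and no replicate could be left out. Depth limits the low genes: germ Bak1 and Bcl2 rest on 11 to 40 UMIs per library.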
